A study of Homo sapiens with 48 samples.

Results

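A set of 22 genes stood within 0.35 log2 CPM of their starting level after 24 h of IRE1 silencing in human myeloma cells and at least 0.8 above it at 48 h, and their course was followed when XBP1 was silenced instead. The 22 genes were chosen by a rule on the measured values, out of 18401 genes in the deposited table of log2 CPM (counts scaled to library size, on a log2 scale). In shIRE1 clone 1 and in shIRE1 clone 3, each gene had a mean of at least 1 log2 CPM at 48 h, a 24 h mean within 0.35 of the 0 h mean, and a 48 h mean at least 0.8 above the 0 h mean. The same rule with the sign turned gave 14 genes, and 219 genes stood at least 0.8 above 0 h at both 24 h and 48 h.

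The cells were AMO1, an established line of human plasma cell myeloma that carries a doxycycline (Dox) inducible shRNA construct. The shIRE1 clones 1 and 3 (labelled AMO-1 IRE1 sh7,8,9) carried shRNAs against ERN1, the gene of IRE1, and the shXBP1 clones 1 and 18 (labelled AMO-1 XBP1 sh4,6,7) carried shRNAs against XBP1. Poly(A) RNA was sequenced at 0 h without Dox and at 24, 48 and 72 h with 0.2 µg/ml Dox. There were 3 libraries per clone and time, which made 48 libraries in 16 groups. All 4 lines are single-cell-derived clones that took up 3 shRNAs together and were picked for their knockdown, so a difference between shIRE1 and shXBP1 clones cannot be told apart from a difference between clones. No clone with a non-targeting shRNA was analysed here, so an effect of Dox itself cannot be told apart from an effect of silencing. The labels do not say whether the 3 libraries of a group came from separate cultures, so the errors may cover technical spread only.

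IRE1 is a sensor of misfolded proteins in the membrane of the endoplasmic reticulum. Its cytoplasmic kinase and RNase module splices the XBP1 mRNA, and the spliced form encodes a transcription factor that enlarges the secretory machinery on which plasma cells depend. MHC class II molecules present peptides to CD4 T cells, are made at high levels in B cells under the coactivator CIITA, and are turned down when B cells become plasma cells. IRF4 is a transcription factor that plasma cells and myeloma cells need.

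Library totals ranged from 19177855 to 40767202 counts. The targeted genes went the way of the labels. ERN1 fell in shIRE1 clone 1, from 154, 151 and 157 CPM at 0 h to 126, 126 and 128 CPM at 24 h and 93.2, 95.02 and 103 CPM at 48 h. In shIRE1 clone 3 it fell from 417, 449.9 and 444 CPM to 143, 145 and 146 CPM and 127, 120.2 and 119 CPM, a deeper knockdown than in clone 1. XBP1 in shXBP1 clone 1 went from 158, 173 and 175 CPM at 0 h to 33.4, 33.5 and 34.4 CPM at 72 h, and in shXBP1 clone 18 from 165, 177 and 165 CPM to 41.6, 40.1 and 31.5 CPM. ERN1 also changed in the shXBP1 clones by edgeR, in opposite directions. In clone 1 its log2 fold change was 0.76 (SE 0.04, adjusted p = 7.05e-07) at 24 h and 0.72 (SE 0.04, adjusted p = 8.74e-07) at 72 h. In clone 18 it was -0.04 (SE 0.06, adjusted p = 0.817) at 24 h and -0.29 (SE 0.06, adjusted p = 0.0146) at 48 h. All plasma cell markers of the list were present, with SDC1 the most abundant, and the summed markers of T cells, myeloid, epithelial, fibroblast and erythroid cells did not exceed 19.2 CPM in any library, that highest sum being almost all CD3E.

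The library labelled shXBP1 clone 18, 72 h, replicate 3 went against its label. At 79 genes that separated the shXBP1 clones by at least 3 log2 units at the other times, it was nearer to clone 1 than to clone 18 at all 79, and its mean correlation was 0.994 with the 72 h libraries of clone 1 and 0.983 with those of its own group. The counts of calls in clone 18 at 72 h and the fitted 72 h changes printed for clone 18 are therefore given with and without that library. In shIRE1, the library labelled clone 3, 24 h, replicate 1 correlated slightly more with the 24 h libraries of clone 1 (0.992) than with its own group (0.991). Without it the rule found 20 genes, 19 of them among the 22.

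In the shIRE1 clones the 22 genes stepped up between 24 h and 48 h and kept about that level at 72 h. The median difference from 0 h was 0.26 log2 CPM at 24 h, 1.07 at 48 h and 1.01 at 72 h in clone 1, and 0.21, 1.34 and 1.45 in clone 3, against a median over all genes between 0.01 and 0.04 in these 6 comparisons. The 24 h and 48 h values were used by the rule and are given as a description. The 72 h libraries were not used by it, but the 0 h libraries were, so the 72 h values are a description too. At 72 h, 17 of the 22 genes were at least 0.8 above 0 h in both clones (7.27% of all genes were), and for all 22 every 72 h library lay above every 0 h library in both clones (20.6% of all genes). At 24 h that held for 7 of the 22 (14.4% of all genes), so part of the set already stood slightly higher, within the window that the rule allows. From 48 h to 72 h the means changed by -0.31 to 0.18 in clone 1 and by -0.21 to 0.50 in clone 3. The 48 h difference was larger in clone 3 than in clone 1 for 19 of the 22 genes, against 9259 of all 18401. The rule used these differences, so this too is a description.

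**Figure D1:**
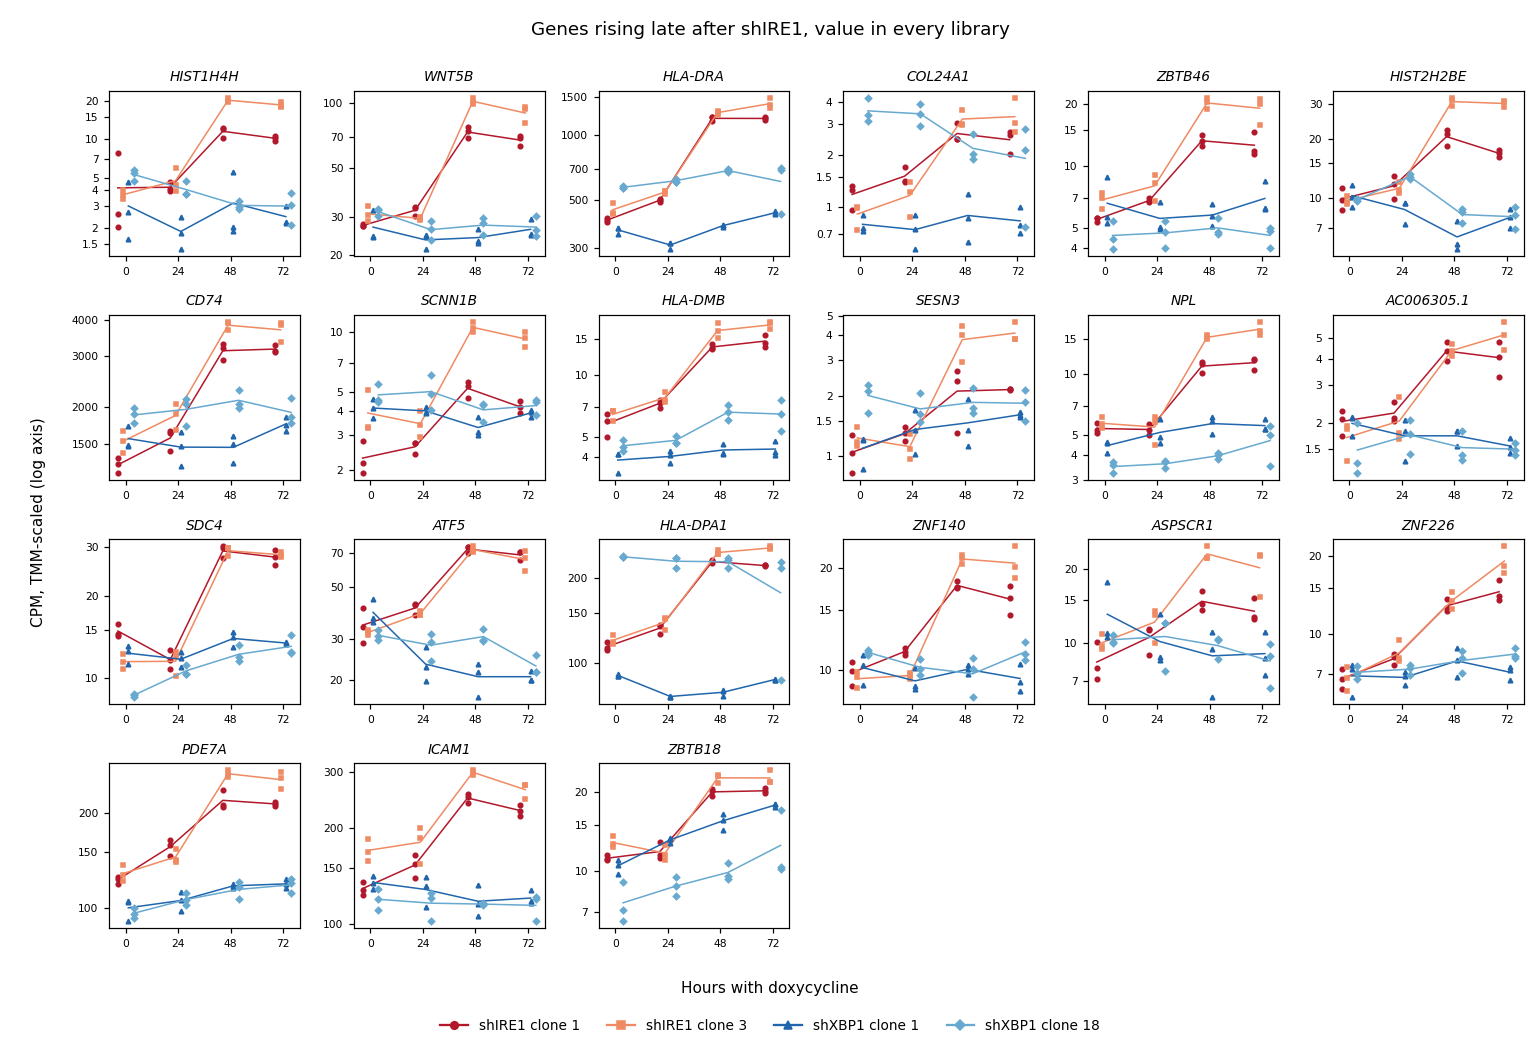
CPM with TMM scaling on a log axis against hours with Dox for 21 of the 22 genes, with 1 point per library and a line through the mean of each of the 4 clones. The shIRE1 clones 1 and 3 step up between 24 h and 48 h in each panel, and no shXBP1 mean lies 0.8 log2 CPM or more above its 0 h mean.

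Of 29 genes outside the set that stood on the list of interferon-stimulated genes and were tested in both shIRE1 clones, 19 were higher and 2 lower in both at 72 h, against 20.5% and 21.4% of all genes. Their median fitted change was 0.88 in clone 1 (29 genes) and 1.24 in clone 3 (30 genes), where the median over all genes tested was 0.02 in each. Several of them, such as IFI6 and MX2, an antiviral GTPase, had already risen at 24 h in both clones and so fell outside the rule. Among the 19 were MX1, MX2, IFIT5, RSAD2, EPSTI1, PARP9 and TRIM22, which did not pass the filter on low counts in shXBP1 clone 1. A gene low at 0 h can pass that filter through the groups where it is high, which favours rises in the shIRE1 count and medians. The shXBP1 counts are therefore over fewer genes of the list. In shXBP1 clone 1, 6 of the 22 listed genes outside the set that were tested were higher and 4 lower at 72 h (16.8% of all genes in each direction). In shXBP1 clone 18, 0 of 28 were higher and 5 lower by edgeR (0 and 13 at an unadjusted p under 0.05), with a median of -0.48, against 4.41% and 5.55% of all genes. Without 72 h replicate 3 the numbers were 0 and 7 (2 and 10 at an unadjusted p under 0.05) and the median was -0.32, against 3.09% and 4.48%. These shares of all genes are for the adjusted p, and none was computed for the unadjusted p.

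The MHC class II group gave 4 of the 22 genes: HLA-DRA, HLA-DPA1, HLA-DMB and CD74. HLA-DRA encodes the alpha chain of HLA-DR, HLA-DPA1 that of HLA-DP, HLA-DMB a chain of the peptide editor HLA-DM, and CD74 the invariant chain that guards the groove of class II molecules. HLA-DRA in shIRE1 clone 1 was at 397, 414 and 405 CPM at 0 h, 493, 501 and 508 CPM at 24 h, 1160.0, 1214 and 1205 CPM at 48 h and 1173, 1208 and 1196 CPM at 72 h. In clone 3 it was at 485, 433 and 439 CPM, 549, 536 and 553 CPM, 1241, 1285 and 1279.8 CPM and 1368, 1338 and 1479.6 CPM. The 24 h libraries lay above all 0 h libraries in both clones, and the 48 h and 72 h libraries lay far above both.

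CD74 was at 1189.5, 1275 and 1337 CPM at 0 h and 3303, 3205 and 2905 CPM at 48 h in clone 1. Clone 3 of shIRE1 held 1664, 1388 and 1532 CPM and 3937, 3692 and 3903 CPM. HLA-DPA1 was at 112, 118 and 113 CPM and 229, 232 and 226 CPM in clone 1. Those of clone 3 were 125, 117 and 119 CPM and 244, 252 and 243 CPM. HLA-DMB was at 5.05, 5.998 and 6.47 CPM and 14.2, 13.5 and 13.5 CPM in clone 1. The values in clone 3 were 6.69, 6.01 and 6.696 CPM and 17.96, 15.1 and 16.5 CPM. The 0 h and 48 h groups did not overlap for any of these genes. The same held for all 22 genes in both clones, which were chosen on this difference. The share of all genes for which it held at 48 h was not computed, so this is a description only. The 48 h differences in clones 1 and 3 were 1.56 and 1.49 log2 CPM for HLA-DRA, 1.31 and 1.33 for CD74, 1.23 and 1.34 for HLA-DMB, and 1.00 and 1.04 for HLA-DPA1.

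The other class II genes of the list and CIITA were also higher at 48 h, and each missed the rule at 1 criterion. HLA-DMA missed the 48 h threshold with 0.80 in clone 1, beside 0.90 in clone 3. HLA-DRB1 and HLA-DPB1 missed the 24 h window in clone 1, with 0.36 and 0.44, and had 48 h differences of 1.54 and 1.51 there and of 1.61 and 1.44 in clone 3. CIITA missed the window in clone 3. It went from 51.5, 57.6 and 57.5 CPM at 0 h to 65.4, 65.05 and 67.1 CPM at 24 h and 196, 179 and 180.4 CPM at 48 h in clone 1, and from 34.8, 40.3 and 38.96 CPM to 67.3, 76.7 and 71.6 CPM and 214, 204 and 211 CPM in clone 3. By edgeR its log2 fold change at 24 h was 0.26 (SE 0.06, adjusted p = 0.00046) in clone 1 and 0.91 (SE 0.07, adjusted p = 6.25e-08) in clone 3, so CIITA was already up at 24 h. The class II members, which the rule held within its window, were slightly up at 24 h too. For HLA-DRA, CD74, HLA-DMB and HLA-DPA1 the fitted changes were 0.32, 0.33, 0.34 and 0.23 in clone 1. In clone 3 they were 0.27, 0.29, 0.26 and 0.21. CIITA thus stood above these members at 24 h in clone 3 only. Reads of the HLA genes depend on how well the alleles of the line match the reference, so their levels are less certain than their changes.

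**Figure D2:**
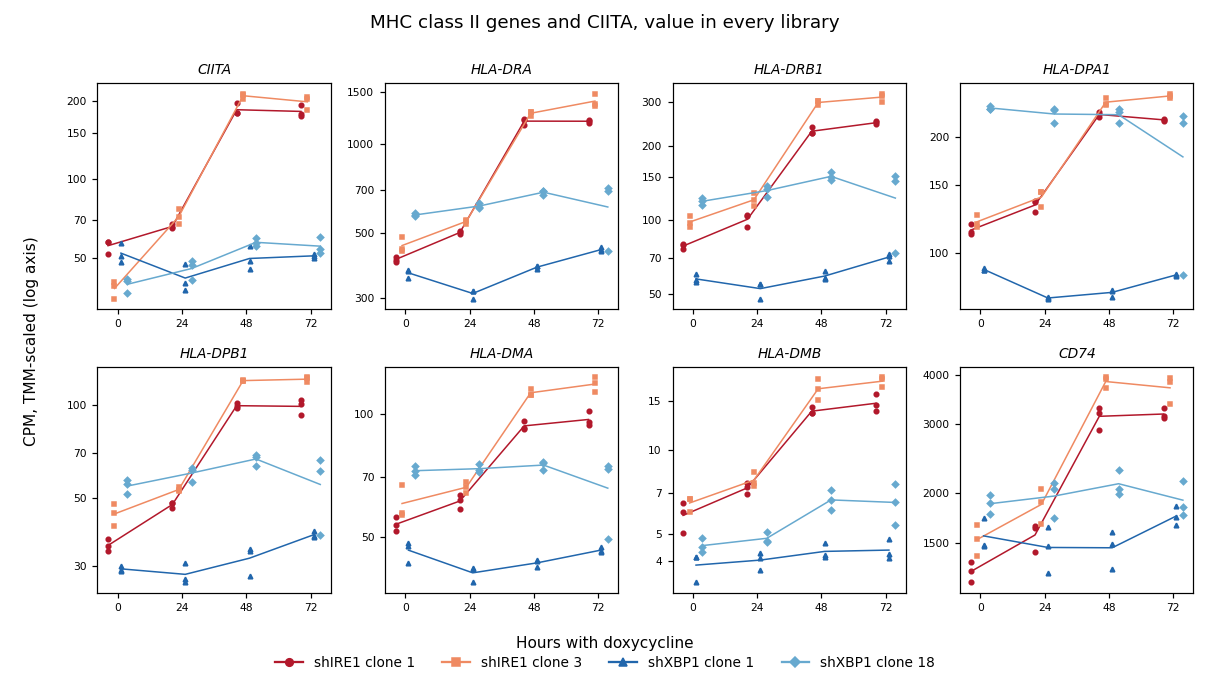
CPM with TMM scaling on a log axis against hours with Dox for CIITA and the 7 class II genes of the list, with 1 point per library and a line through each clone's mean. In the shIRE1 clones all panels step up between 24 h and 48 h, and in shXBP1 clone 18 at 72 h 1 library of several HLA genes falls to the level of shXBP1 clone 1.

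In the shXBP1 clones the class II members changed by less than 0.8 log2 CPM at all times. HLA-DRA in clone 1 went from 350.0, 372 and 374 CPM at 0 h to 318, 299 and 317 CPM at 24 h and 434, 435 and 446 CPM at 72 h, so it fell at 24 h by a log2 fold change of -0.23 (SE 0.04, adjusted p = 0.00224) and rose by 72 h with 0.26 (SE 0.04, adjusted p = 0.000721). In clone 18 it went from 572, 568 and 582 CPM to 692, 707 and 434 CPM, with 0.09 (SE 0.13, adjusted p = 0.695) at 72 h over all libraries and 0.28 (SE 0.04, adjusted p = 0.00059) without replicate 3. HLA-DPA1 fell in clone 1 at 24 h, with -0.25 (SE 0.04, adjusted p = 0.00146), and at 48 h, with -0.20 (SE 0.04, adjusted p = 0.00454), and stood at -0.05 (SE 0.04, adjusted p = 0.437) at 72 h. In clone 18 its 72 h libraries held 228, 218 and 87.1 CPM against 237, 237 and 240.3 CPM at 0 h, a change of -0.43 (SE 0.23, adjusted p = 0.263) with all libraries and -0.10 (SE 0.05, adjusted p = 0.276) without replicate 3, the lowest value. HLA-DMB rose in clone 18, from 4.85, 4.502 and 4.32 CPM at 0 h to 7.17, 6.61 and 6.11 CPM at 48 h and 7.57, 6.51 and 5.397 CPM at 72 h, with 0.54 (SE 0.13, adjusted p = 0.0317) at 48 h and 0.51 (SE 0.13, adjusted p = 0.028) at 72 h. In clone 1 HLA-DMB was at 0.18 (SE 0.12, adjusted p = 0.245) at 72 h. CD74 passed the test at no time in either clone, with 0.17 (SE 0.10, adjusted p = 0.229) in clone 1 and 0.03 (SE 0.09, adjusted p = 0.855) in clone 18 at 72 h (0.08 (SE 0.09, adjusted p = 0.615) without replicate 3).

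On the B-cell programme list, which holds the class II genes, 13 of the 24 other genes tested in both shIRE1 clones were higher and 3 lower in both at 72 h, against 20.5% and 21.4% of all genes. IRF8 and CD80, both among the 13, did not pass the filter on low counts in either shXBP1 clone, so the genes compared differ. In the shXBP1 clones at 72 h, 10 of 22 others were higher and 1 lower in clone 1 (16.8% of all genes in each direction). In clone 18, 3 of 23 were higher and 3 lower (4.41% and 5.55%), and without replicate 3 there were 4 and 3 (3.09% and 4.48%). Of the 10 plasma cell markers, 7 were lower in both shIRE1 clones at 72 h against 21.4% of all genes, with medians of -0.48 in clone 1 and -1.04 in clone 3. Their part in the class II result was not tested.

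Promoter windows from RefSeq (build GRCh38.p14, 250 bases before to 50 after a gene's start) were found for 19 of the 22 genes, in 26 windows. HLA-DRA and PDE7A were among those without a window. The element of IRF factors, spelled GAAANNGAA and searched on both strands, occurred in 6 of the 26 windows, each of a different gene, and in 6.83% of 16162 windows of all genes in the table. The 6 windows are shown because they include all 3 class II genes with a window, and the capitals mark the matches. The coordinates are those of RefSeq, whereas the submitters' processing notes name GRCh37 and hg19.
CD74 (chr5:150412861-150413160, minus strand): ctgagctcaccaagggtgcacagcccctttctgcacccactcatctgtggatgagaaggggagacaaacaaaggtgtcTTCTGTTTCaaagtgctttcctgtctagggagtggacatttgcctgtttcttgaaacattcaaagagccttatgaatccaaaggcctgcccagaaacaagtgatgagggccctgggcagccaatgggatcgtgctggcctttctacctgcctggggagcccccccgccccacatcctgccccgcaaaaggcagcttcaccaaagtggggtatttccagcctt
HLA-DMB (chr6:32940979-32941278, minus strand): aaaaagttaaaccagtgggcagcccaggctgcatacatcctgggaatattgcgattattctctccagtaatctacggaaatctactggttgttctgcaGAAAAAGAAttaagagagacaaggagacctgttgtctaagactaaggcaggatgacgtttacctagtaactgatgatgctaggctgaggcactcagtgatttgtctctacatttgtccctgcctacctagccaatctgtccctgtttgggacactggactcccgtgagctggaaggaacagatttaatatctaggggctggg
HLA-DPA1 (chr6:33073600-33073899, minus strand): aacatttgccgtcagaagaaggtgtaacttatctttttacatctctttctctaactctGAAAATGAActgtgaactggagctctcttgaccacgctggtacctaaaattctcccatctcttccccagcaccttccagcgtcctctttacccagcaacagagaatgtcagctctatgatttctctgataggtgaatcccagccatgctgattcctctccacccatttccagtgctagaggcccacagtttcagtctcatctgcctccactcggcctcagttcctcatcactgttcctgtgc
ATF5 (chr19:49928656-49928955, plus strand): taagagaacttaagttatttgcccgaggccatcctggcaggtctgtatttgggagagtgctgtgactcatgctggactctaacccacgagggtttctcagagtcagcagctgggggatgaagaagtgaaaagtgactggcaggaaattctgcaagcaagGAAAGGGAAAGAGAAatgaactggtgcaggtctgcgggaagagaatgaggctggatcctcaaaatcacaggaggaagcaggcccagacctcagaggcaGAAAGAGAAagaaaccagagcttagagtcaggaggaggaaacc
HIST2H2BE, now H2BC21 (chr1:149886633-149886932, minus strand): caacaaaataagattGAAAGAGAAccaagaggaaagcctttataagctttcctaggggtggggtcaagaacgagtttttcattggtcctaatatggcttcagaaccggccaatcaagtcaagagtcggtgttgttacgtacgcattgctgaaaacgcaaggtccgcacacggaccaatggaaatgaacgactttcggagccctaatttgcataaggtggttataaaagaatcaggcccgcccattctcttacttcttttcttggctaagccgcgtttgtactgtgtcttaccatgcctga
ZBTB18 (chr1:244051033-244051332, plus strand): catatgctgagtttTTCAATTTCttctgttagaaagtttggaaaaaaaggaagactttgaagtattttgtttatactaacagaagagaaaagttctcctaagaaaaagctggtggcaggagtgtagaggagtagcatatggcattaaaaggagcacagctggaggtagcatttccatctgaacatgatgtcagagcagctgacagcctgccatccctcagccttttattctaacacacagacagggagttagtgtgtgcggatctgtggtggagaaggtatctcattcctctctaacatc
A match is only a run of letters and does not show that a factor binds. ATF5, HLA-DPA1 and ZBTB18 have more than 1 window, and the match lay in only 1 of them. The ATF5 window holds 3 matches, of which the first pair overlap.

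The other motifs were counted in the same windows. CCAAT occurred in 8 of the 26 windows against 34.7% of all windows, TATAAA in 5 against 6.63%, TGANTCA (AP-1) in 3 against 5.20%, GGGANTTCC (NF-kappaB) in 3 against 2.30%, CACGTG (E-box) in 2 against 9.09%, GGAANNGAA (ETS-IRF) in 2 against 7.38%, and TGACGTCA (CRE) in 1 against 2.78%. The longer TCACGTGA (CLEAR-like), which contains the E-box, occurred in 1 window, of ASPSCR1, against 1.57%. Neither TGACGTGG (UPR element, 0.848% of all windows) nor TTTGGCGC or TTTCCCGC (E2F, 3.27%) occurred in any. The GAS element TTCNNNGAA was added after the values were seen and occurred in 4 windows against 6.27%, among them that of ICAM1, where the capitals mark it.
ICAM1 (chr19:10270870-10271169, plus strand): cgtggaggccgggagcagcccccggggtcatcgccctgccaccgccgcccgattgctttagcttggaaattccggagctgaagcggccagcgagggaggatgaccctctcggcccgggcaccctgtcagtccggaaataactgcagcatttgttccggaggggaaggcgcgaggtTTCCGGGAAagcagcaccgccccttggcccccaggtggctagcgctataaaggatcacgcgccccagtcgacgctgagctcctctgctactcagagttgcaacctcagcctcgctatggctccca

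Of the genes for the cell surface and secreted proteins, ICAM1, SDC4, WNT5B, COL24A1 and SCNN1B belonged to the set. ICAM1 encodes the adhesion molecule bound by leukocyte integrins. It was at 124, 128 and 136 CPM at 0 h, 256, 251.5 and 239.8 CPM at 48 h and 238, 227 and 218 CPM at 72 h in clone 1 of shIRE1. Clone 3 of shIRE1 held 157, 169 and 185 CPM, 305, 294 and 302 CPM and 273, 274 and 247 CPM. ICAM1 differences of 0.95 ± 0.05 and 0.82 ± 0.07 log2 CPM (SE, n = 3 against 3) at 48 h were among those nearest to the threshold. In the shXBP1 clones ICAM1 had a fitted log2 fold change of -0.16 (SE 0.09, adjusted p = 0.191) in clone 1 and -0.06 (SE 0.08, adjusted p = 0.703) in clone 18 at 72 h (-0.11 (SE 0.09, adjusted p = 0.494) without replicate 3). On the NF-kappaB target list, which holds ICAM1, 7 of 19 others were higher and 1 lower in both shIRE1 clones at 72 h, with medians of 0.27 in clone 1 and 0.32 in clone 3, against 20.5% and 21.4% of all genes. In the shXBP1 clones 5 of 20 others were higher and 5 lower in clone 1 (16.8% of all genes in each direction), and 2 of 21 higher and 4 lower in clone 18 (4.41% and 5.55%). Without replicate 3 of clone 18 the numbers were 0 and 5 by edgeR (3.09% and 4.48%), or 2 and 6 at an unadjusted p under 0.05. No share of all genes was computed for the unadjusted p.

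SDC4, a heparan sulfate proteoglycan of the cell surface, had the lowest 24 h difference of the set in shIRE1 clone 1, -0.35 log2 CPM. In shIRE1 clone 1 it went from 15.8, 14.5 and 14.3 CPM at 0 h to 11.6, 12.6 and 10.8 CPM at 24 h and then to 27.3, 29.7 and 30.3 CPM at 48 h, so that all 24 h libraries lay below all 0 h libraries. In clone 3 it went from 12.2, 10.8 and 11.4 CPM to 12.5, 10.2 and 11.9 CPM and 29.8, 27.8 and 29.8 CPM. In shXBP1 clone 18 SDC4 rose from 8.75, 8.68 and 8.56 CPM at 0 h to 10.4, 10.4 and 11.1 CPM at 24 h, 11.5, 11.9 and 13.2 CPM at 48 h and 12.4, 12.5 and 14.3 CPM at 72 h, with a log2 fold change of 0.49 (SE 0.10, adjusted p = 0.0102) at 48 h and 0.60 (SE 0.10, adjusted p = 0.00213) at 72 h. In shXBP1 clone 1 it held 11.3, 12.5 and 13.2 CPM and 13.3, 13.4 and 13.6 CPM at 0 h and 72 h, a change of 0.13 (SE 0.08, adjusted p = 0.263).

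WNT5B, a secreted WNT ligand, was at 27.3, 27.1 and 27.7 CPM at 0 h, 30.3, 33.1 and 33.1 CPM at 24 h and 77.5, 74.05 and 68.9 CPM at 48 h in clone 1 of shIRE1. Those of clone 3 were 33.5, 28.8 and 30.6 CPM, 29.1, 29.8 and 29.7 CPM and 105, 98.6 and 101 CPM. The 24 h means of WNT5B stayed within 0.25 of 0 h in both clones. It was called at no time in either shXBP1 clone, with -0.03 (SE 0.12, adjusted p = 0.856) in clone 1 and -0.23 (SE 0.10, adjusted p = 0.153) in clone 18 at 72 h (-0.21 (SE 0.11, adjusted p = 0.261) without replicate 3). COL24A1, a fibrillar collagen chain, rested on 18 to 133 counts per library. It was at 0.963, 1.26 and 1.33 CPM at 0 h and 2.46, 3.05 and 2.46 CPM at 48 h in clone 1 of shIRE1. The values in clone 3 were 0.739, 1.01 and 0.993 CPM and 2.99, 3.02 and 3.62 CPM. In shXBP1 clone 18 COL24A1 started higher, at 4.24, 3.37 and 3.13 CPM, and the 72 h libraries held 2.13, 2.83 and 0.775 CPM, a change of -0.92 (SE 0.32, adjusted p = 0.085) with all libraries and of -0.52 (SE 0.20, adjusted p = 0.137) without replicate 3. Its 48 h change there was -0.70 (SE 0.32, adjusted p = 0.228) with that library in the fit and -0.69 (SE 0.18, adjusted p = 0.0215) without it, so COL24A1 was then called lower at 48 h. SCNN1B, a subunit of the epithelial sodium channel, was at 1.93, 2.15 and 2.79 CPM at 0 h and 5.597, 5.34 and 4.64 CPM at 48 h in clone 1 of shIRE1. Clone 3 of shIRE1 held 5.09, 3.29 and 3.27 CPM and 10.5, 10.1 and 11.3 CPM. In shXBP1 clone 1 SCNN1B fell at 48 h, with -0.33 (SE 0.12, adjusted p = 0.047).

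The set held 5 genes of DNA-binding proteins: ATF5, ZBTB46, ZBTB18, ZNF140 and ZNF226. ATF5 is a bZIP factor of the amino acid and mitochondrial stress responses and a known target of ATF4. It was higher in the shIRE1 clones and fell in the shXBP1 clones. In shIRE1 clone 1 it was at 28.7, 33.7 and 40.4 CPM at 0 h, 37.7, 41.9 and 42.1 CPM at 24 h and 73.9, 73.7 and 69.9 CPM at 48 h, and in clone 3 at 31.1, 32.00 and 32.5 CPM, 37.9, 37.8 and 39.5 CPM and 74.5, 70.1 and 71.8 CPM. In shXBP1 clone 1 it went from 44.5, 36.6 and 35.5 CPM at 0 h to 19.8, 27.5 and 22.7 CPM at 24 h and 21.9, 19.99 and 20.05 CPM at 72 h. All treated libraries there lay below all 0 h libraries, with log2 fold changes of -0.73 (SE 0.14, adjusted p = 0.00278) at 24 h, -0.92 (SE 0.14, adjusted p = 0.000648) at 48 h and -0.91 (SE 0.14, adjusted p = 0.000571) at 72 h. In shXBP1 clone 18 it went from 32.6, 29.6 and 30.8 CPM to 29.6, 29.3 and 32.9 CPM at 48 h and 25.6, 21.6 and 21.7 CPM at 72 h, and it fell at 72 h with -0.43 (SE 0.10, adjusted p = 0.0201).

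Most other ATF4 targets of the list were lower in the shIRE1 clones, where ATF5 was higher. Of the 20 tested, 14 were lower and 0 higher in both clones at 72 h by edgeR (also 0 higher at an unadjusted p under 0.05), with medians of -0.56 in clone 1 and -1.53 in clone 3, against 21.4% and 20.5% of all genes. PHGDH, the entry enzyme of serine synthesis, and SLC7A11, a cystine carrier, were among those that fell. Under shXBP1 3 of 19 others were lower and 4 higher in clone 1 (16.8% of all genes in each direction). In clone 18, 9 of 19 were lower and 0 higher by edgeR (12 and 0 at an unadjusted p under 0.05), against 5.55% and 4.41%. Without replicate 3 there were 6 lower and 0 higher (11 and 0 at an unadjusted p under 0.05), against 4.48% and 3.09%. All shares given here are for the adjusted p, so the unadjusted counts have no share beside them.

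ZBTB18, a zinc finger repressor, was the member that also rose in shXBP1 clone 1 at all 3 times. It was at 11.5, 11.1 and 11.02 CPM at 0 h, 12.9, 11.6 and 11.2 CPM at 24 h and 20.6, 20.3 and 19.4 CPM at 48 h in clone 1 of shIRE1. Those of clone 3 were 12.3, 13.6 and 12.7 CPM, 11.5, 12.6 and 11.03 CPM and 23.4, 23.05 and 21.7 CPM. In shXBP1 clone 1 it was at 9.801, 11.1 and 10.6 CPM at 0 h, 13.4, 12.8 and 13.3 CPM at 24 h, 14.4, 15.7 and 16.6 CPM at 48 h and 18.1, 17.5 and 18.05 CPM at 72 h, and the log2 fold change at 72 h was 0.77 (SE 0.08, adjusted p = 2.65e-05). No shXBP1 clone 1 library with Dox overlapped the 0 h libraries. Under shXBP1, in clone 18 the 0 h libraries held 6.47, 9.13 and 7.14 CPM and the 72 h libraries 10.2, 10.3 and 17.1 CPM. The change there was 0.73 (SE 0.19, adjusted p = 0.0321) with all libraries and 0.42 (SE 0.13, adjusted p = 0.0743) without replicate 3, which is the highest value and the library nearer to clone 1, so the call in clone 18 was lost without it.

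ZBTB46, a zinc finger factor known from dendritic cells, was at 5.32, 5.57 and 5.61 CPM at 0 h and 14.1, 12.5 and 13.2 CPM at 48 h in clone 1 of shIRE1. The values in clone 3 were 6.18, 6.98 and 7.36 CPM and 21.4, 20.4 and 18.99 CPM. ZNF140 and ZNF226 are KRAB zinc finger genes from large families of similar sequence, in which short reads can be shared. ZNF140 was at 9.94, 10.5 and 8.995 CPM and 17.5, 18.2 and 17.5 CPM at 0 h and 48 h in clone 1. Clone 3 of shIRE1 held 9.56, 9.88 and 8.83 CPM and 21.8, 20.5 and 21.4 CPM. ZNF226 was at 6.67, 7.29 and 6.11 CPM, 12.6, 12.2 and 13.6 CPM and 13.5, 13.9 and 16.1 CPM at 0, 48 and 72 h in clone 1. Those of clone 3 were 6.02, 7.46 and 6.73 CPM, 13.3, 12.4 and 14.4 CPM and 17.2, 18.2 and 21.7 CPM. In clone 3 all 72 h libraries of ZNF226 lay above all 48 h libraries. None of these 3 genes was called in a shXBP1 clone at any time by edgeR. Their 72 h changes there lay between -0.11 (ZNF140 in clone 1) and 0.23 (ZNF226 in clone 18) log2 CPM.

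The histone genes were HIST1H4H (now H4C8) and HIST2H2BE (now H2BC21). HIST1H4H encodes histone H4, whose other gene copies are nearly identical, and most histone mRNAs lack the poly(A) tail that the libraries select for, so both limit what its counts stand for. HIST1H4H rested on 49 to 760 counts per library and scattered at 0 h, with 2.04, 2.61 and 7.83 CPM in shIRE1 clone 1, 4.61, 4.08 and 3.94 CPM at 24 h and 10.3, 12.2 and 12.2 CPM at 48 h. In shIRE1 clone 3 it was at 3.65, 3.995 and 3.38 CPM at 0 h, 4.36, 5.93 and 3.93 CPM at 24 h and 21.1, 19.6 and 20.2 CPM at 48 h. With XBP1 silenced in clone 18, it fell, from 4.74, 5.44 and 5.73 CPM at 0 h to 3.31, 2.95 and 2.84 CPM at 48 h and 3.05, 3.79 and 2.14 CPM at 72 h, with -0.82 (SE 0.18, adjusted p = 0.0215) at 48 h and -0.84 (SE 0.18, adjusted p = 0.014) at 72 h. With XBP1 silenced in clone 1, its 72 h change was -0.27 (SE 0.43, adjusted p = 0.662).

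HIST2H2BE, an H2B gene, was at 9.79, 8.64 and 11.2 CPM at 0 h and 18.3, 21.1 and 22.03 CPM at 48 h in clone 1 of shIRE1. The values in clone 3 were 10.2, 9.48 and 9.34 CPM and 32.2, 31.3 and 29.2 CPM. For the shXBP1 clone 1 libraries, it went from 10.1, 8.96 and 11.7 CPM at 0 h to 5.51, 5.85 and 7.63 CPM at 48 h, where it fell with -0.70 (SE 0.15, adjusted p = 0.00551), and stood at -0.37 (SE 0.15, adjusted p = 0.0796) at 72 h. Under shXBP1, in clone 18 it was at -0.29 (SE 0.11, adjusted p = 0.0963) at 72 h, and at -0.20 (SE 0.10, adjusted p = 0.248) without replicate 3. At 24 h in clone 18 it went the other way, with 0.39 (SE 0.10, adjusted p = 0.0857) over all libraries. Without 72 h replicate 3 in the fit it was called higher at 24 h, with 0.39 (SE 0.08, adjusted p = 0.0159).

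The remaining members were PDE7A, NPL, SESN3, ASPSCR1 and AC006305.1. PDE7A, a phosphodiesterase that breaks down cyclic AMP, was at 126, 124 and 119 CPM at 0 h, 165, 158 and 147 CPM at 24 h and 209, 212 and 236 CPM at 48 h in clone 1 of shIRE1. Clone 3 of shIRE1 held 137, 127 and 122 CPM, 154, 139.9 and 142 CPM and 259.9, 272 and 265 CPM. PDE7A rose in both shXBP1 clones, with 91.3, 105 and 105 CPM at 0 h and 116, 123 and 119 CPM at 72 h in clone 1 and 95.95, 100.4 and 92.9 CPM and 112, 123 and 120.3 CPM in clone 18. The 72 h changes were 0.25 (SE 0.07, adjusted p = 0.012) in clone 1 and 0.30 (SE 0.06, adjusted p = 0.0128) in clone 18.

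NPL, the lyase that splits sialic acid, was at 5.28, 5.14 and 5.74 CPM at 0 h, 5.02, 5.64 and 5.301 CPM at 24 h and 10.2, 11.5 and 11.2 CPM at 48 h in clone 1 of shIRE1. Those of clone 3 were 5.64, 5.400 and 6.11 CPM, 6.16, 4.46 and 5.81 CPM and 15.2, 14.9 and 15.6 CPM. Under shXBP1, in clone 1 it rose at 48 h with 0.36 (SE 0.12, adjusted p = 0.0407) and stood at 0.33 (SE 0.12, adjusted p = 0.0549) at 72 h. SESN3, a sestrin that restrains mTORC1, rested on 25 to 156 counts per library. It was at 1.27, 1.05 and 0.8298 CPM at 0 h and 1.31, 2.37 and 2.65 CPM at 48 h in clone 1 of shIRE1. The values in clone 3 were 1.13, 1.405 and 1.18 CPM and 4.45, 4.03 and 2.93 CPM. ASPSCR1, a tether of the glucose transporter GLUT4, was at 7.13, 7.91 and 10.1 CPM and 16.3, 14.4 and 13.6 CPM at 0 h and 48 h in clone 1. Clone 3 of shIRE1 held 9.76, 9.44 and 10.9 CPM and 24.7, 22.1 and 22.2 CPM. With XBP1 silenced in clone 1, the 0 h values of ASPSCR1 were 17.7, 10.6 and 11.01 CPM and its 72 h change was -0.53 (SE 0.26, adjusted p = 0.138). AC006305.1, a long noncoding RNA now named LINC03069, was at 2.27, 2.09 and 1.73 CPM and 3.89, 4.37 and 4.796 CPM in clone 1. Those of clone 3 were 1.87, 1.93 and 1.32 CPM and 4.34, 4.104 and 4.67 CPM. In the GENCODE 44 annotation 12 of the 22 genes overlap a gene on the opposite strand and 7 overlap another gene on the same strand, and how the counting treated strand is not given in the sources used here.

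With XBP1 silenced none of the 22 genes had a mean 0.8 or more above 0 h at any time. The rule did not use these libraries, so the changes were tested with edgeR over all genes. All 22 passed the filter on low counts in both clones. In clone 1, 1 gene was higher and 3 lower at 24 h (13.9% and 12.8% of all genes). The numbers were 4 and 4 at 48 h (16.6% and 15.5%) and 4 and 1 at 72 h (16.8% in each direction). These shares were near or under those of all genes at 48 h and 72 h. ZBTB18, HLA-DRA and PDE7A were among the 4 higher at 72 h, and the 1 lower was ATF5. The median change of the 22 at 72 h was 0.06, beside -0.01 over all genes tested.

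In clone 18, 0 of the 22 were called at 24 h by edgeR (0.291% of all genes were higher and 1.30% lower), with 3 higher and 2 lower at an unadjusted p under 0.05, 1 called by DESeq2 and 0 by limma. The shares of all genes are for edgeR at the adjusted p only. At 48 h 3 were higher and 1 lower (2.28% and 3.50%), and at 72 h 4 were higher and 2 lower (4.41% and 5.55%). The 4 higher at 72 h were ZBTB18, SDC4, HLA-DMB and PDE7A, and the 2 lower were HIST1H4H and ATF5. Without 72 h replicate 3 there were 5 higher and 2 lower at 72 h (3.09% and 4.48%), with HLA-DRA among those gained and ZBTB18 lost. The other 72 h calls passed without that library: the changes were then 0.52 (SE 0.09, adjusted p = 0.00264) for SDC4, 0.63 (SE 0.12, adjusted p = 0.0042) for HLA-DMB, 0.28 (SE 0.07, adjusted p = 0.0181) for PDE7A, -0.65 (SE 0.16, adjusted p = 0.0207) for HIST1H4H and -0.39 (SE 0.11, adjusted p = 0.0411) for ATF5. Leaving out other single libraries of clone 18 ended the calls of HLA-DMB, ATF5, HIST1H4H, PDE7A or ZBTB18, and none ended that of SDC4. There were 2 calls at 72 h without 0 h replicate 1, and 1 without 0 h replicate 3, that of SDC4. The median change was 0.00 with all libraries and 0.02 without 72 h replicate 3.

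At 72 h, with all libraries, 2 genes were higher in both shXBP1 clones, ZBTB18 and PDE7A (1.44% of all genes), and 1 was lower in both, ATF5 (2.19%). No gene was higher in 1 clone and lower in the other by these calls. For 3 members every 72 h library lay below every 0 h library in both shXBP1 clones and above them in both shIRE1 clones. They were ATF5, HIST2H2BE and HLA-DPA1 (0.614% of all genes). All 22 met the shIRE1 part, which the choice of genes favoured. Of all genes, 3786 met that part and 113 met both. HLA-DPA1 had fitted changes of -0.05 (SE 0.04, adjusted p = 0.437) in clone 1 and -0.10 (SE 0.05, adjusted p = 0.276) in clone 18 without replicate 3. At 72 h 14 of the 22 genes were called in neither clone, and with all libraries 10 were called in neither at any time: WNT5B, COL24A1, ZBTB46, CD74, SESN3, AC006305.1, ZNF140, ASPSCR1, ZNF226 and ICAM1. Of these, COL24A1 was called lower in clone 18 at 48 h without 72 h replicate 3. For the other 9 a change was not detectable at this spread, which does not show that they stayed the same. The share of all genes called in neither clone was not computed, so the counts of 14 and 10 are a description only.

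**Figure D3:**
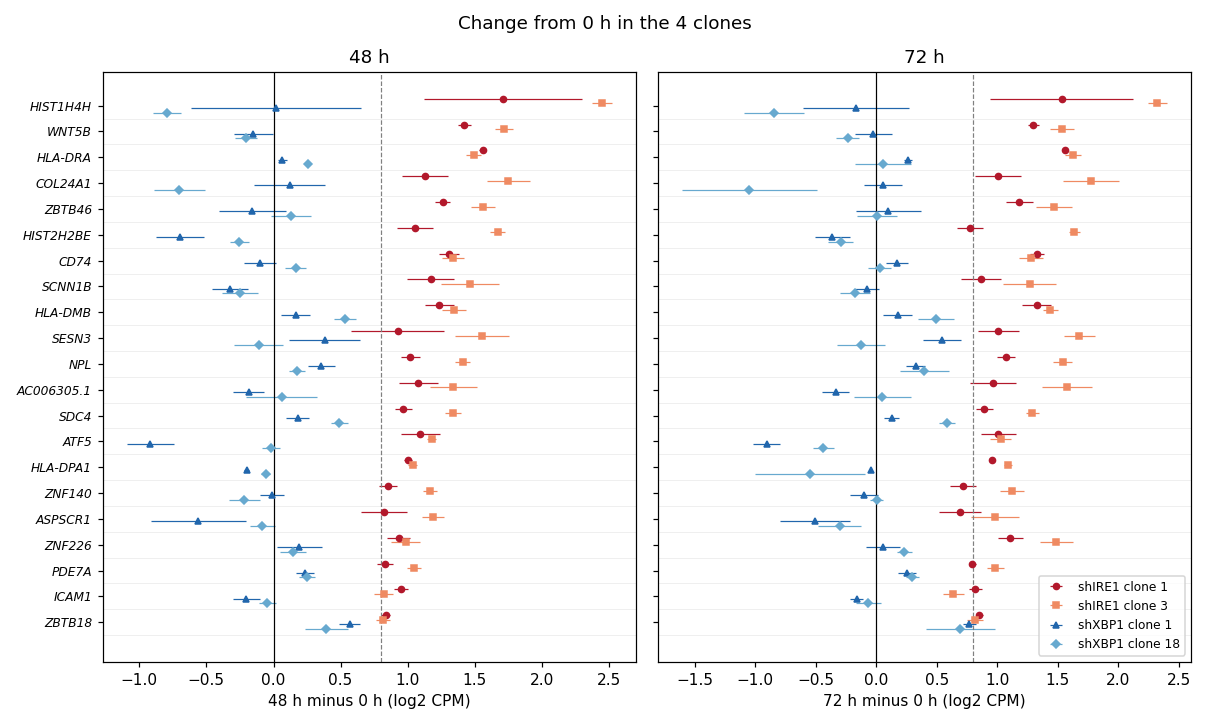
Difference from 0 h in mean log2 CPM at 48 h (left) and 72 h (right) for 21 of the 22 genes in the 4 clones, with bars of 1 SE of the difference and a dashed line at the 0.8 threshold of the rule. All shIRE1 points lie to the right of 0.8 at 48 h by the choice of the genes, and no shXBP1 point reaches it.

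**Figure D4:**
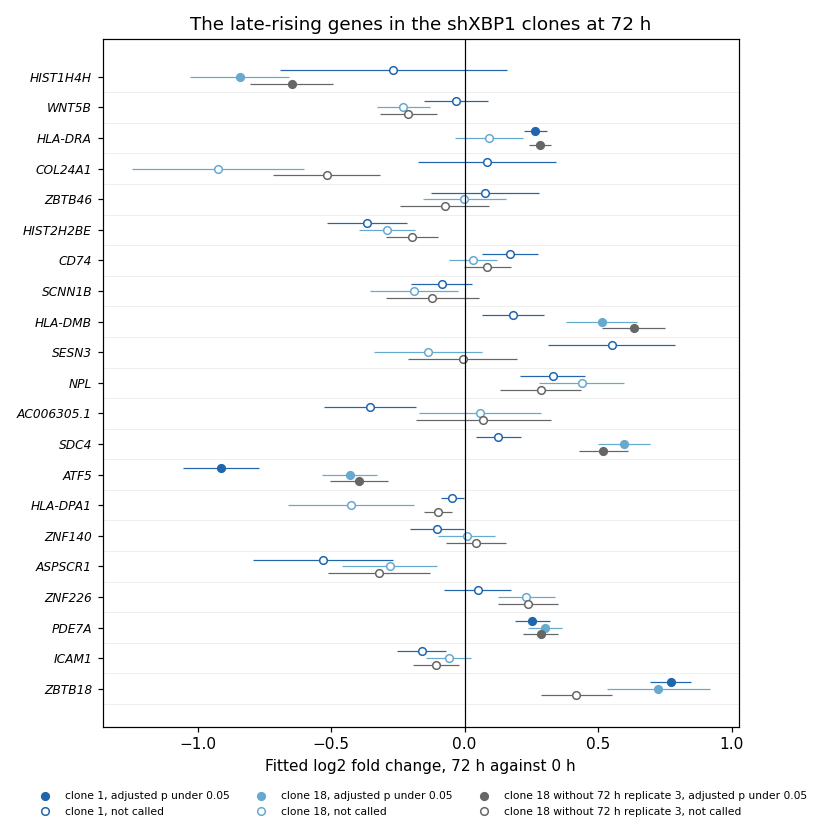
Fitted log2 fold change at 72 h against 0 h for 21 of the 22 genes in shXBP1 clone 1, in clone 18 and in clone 18 without 72 h replicate 3, with bars of 1 SE and filled points for an adjusted p under 0.05. ATF5 lies lowest in clone 1 and ZBTB18 highest.

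The shXBP1 clones were compared by the interaction of clone and time. At 24 h 3 of the 22 genes differed, SDC4, ATF5 and HIST2H2BE (12.2% of all genes), at 48 h 2, SDC4 and ATF5 (19.3%), and at 72 h 1, SDC4 (20.3%). Without 72 h replicate 3 there were 2 at 72 h, SDC4 and HLA-DMB (17.5%). The change of SDC4 was larger in clone 18 than in clone 1 by 0.37 (SE 0.11, adjusted p = 0.036) on the log2 scale at 24 h, 0.33 (SE 0.11, adjusted p = 0.0489) at 48 h and 0.48 (SE 0.11, adjusted p = 0.00533) at 72 h. Without 72 h replicate 3 the 72 h value of SDC4 was 0.39 (SE 0.11, adjusted p = 0.0173). For ATF5, which fell earlier in clone 1, the difference was 0.61 (SE 0.18, adjusted p = 0.0327) at 24 h, 0.91 (SE 0.18, adjusted p = 0.00154) at 48 h and 0.49 (SE 0.18, adjusted p = 0.0611) at 72 h. Without 72 h replicate 3 the 72 h value of ATF5 was 0.52 (SE 0.19, adjusted p = 0.071).

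XBP1 and IRF4 mRNA were set beside the set as checks. In shIRE1 cells XBP1 mRNA had a log2 fold change of 0.10 (SE 0.04, adjusted p = 0.0202) in clone 1 and -0.14 (SE 0.06, adjusted p = 0.0814) in clone 3 at 24 h, and of -0.45 (SE 0.04, adjusted p = 2.62e-09) and -0.95 (SE 0.06, adjusted p = 4.38e-09) at 48 h. IRF4 was at 1372, 1283 and 1288 CPM at 0 h, 1002, 970.2 and 981 CPM at 24 h and 609.8, 551 and 581 CPM at 48 h in clone 1. The values in clone 3 were 1422, 1443 and 1393 CPM, 926, 1033 and 1003 CPM and 306, 316 and 325 CPM. So IRF4 had fallen in part at 24 h and fell further by 48 h, when the 22 genes stepped up. Under shXBP1 IRF4 was at 1352, 1459 and 1468 CPM at 0 h and 1584, 1589 and 1613 CPM at 72 h in clone 1 and at 1618, 1629.6 and 1593 CPM and 1588, 1604 and 1670.3 CPM in clone 18, with log2 fold changes of 0.16 (SE 0.05, adjusted p = 0.0158) and 0.01 (SE 0.05, adjusted p = 0.935). Without replicate 3 the clone 18 value was -0.02 (SE 0.05, adjusted p 0.86). The part of IRF4 in the late rise was not tested.

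At the edge of the rule, the 3 genes just inside the 48 h threshold had a lower clone value of 0.82 each: ZBTB18, ICAM1 and ASPSCR1. The 3 just outside were HLA-DMA at 0.80, LINC01534 at 0.79 and ZNF84, another KRAB zinc finger gene, at 0.78. Of the 22 genes, 9 also met a narrower 24 h window of 0.25: WNT5B, HIST2H2BE, SCNN1B, NPL, AC006305.1, HLA-DPA1, ZNF140, ICAM1 and ZBTB18. When 1 library at a time was left out, genes that met the rule in all 18 cases included WNT5B, HLA-DRA, ZBTB46, HIST2H2BE, SCNN1B, NPL and HLA-DPA1, and COL24A1 met it in 11. Of the 12 pathway lists, 4 held members and 8 (lysosome and autophagy, sterol and fatty acid synthesis, lipid storage, p53 targets, immediate early genes, adhesion and cytoskeleton, quiescence and CDK inhibitors, and hypoxia and glycolysis) held none, so 15 of the 22 genes stood on no list.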

How the data were processed

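RNA-seq of 48 AMO1 libraries was analysed from 2 tables. The authors deposited counts per gene (58302 genes) and log2 CPM with TMM for 18401 of them. The deposited log2 values were regenerated from the counts with edgeR's cpm and a prior count of 2, with a largest difference of 5e-14. Per the labels, TruSeq stranded mRNA libraries were read as single-end 50 bp reads. The submitters' processing notes name GSNAP, R 4.1.3, edgeR 3.32.1, limma 3.46.0, GRCh37 and hg19. The counting tool and its strand setting are not given in the sources used here.

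The rule was applied to group means of the deposited log2 CPM. CPM in the text carry the TMM factors of that table, and differences are on its log2 scale, which understates changes of low genes. The shXBP1 clones were tested per clone with edgeR 4.0.16 quasi-likelihood tests (TMM, filterByExpr with a minimum count of 10 and total of 15), with Benjamini-Hochberg adjustment over all genes tested and a threshold of 0.05. The interaction used all 24 shXBP1 libraries. DESeq2 1.42.0 and limma 3.58.1 were alternatives, and the tests were tested on simulated data. Counts of the lists and IRF4 without shXBP1 clone 18, 72 h, replicate 3 were added after seeing the data. No pair of replicates agreed within counting noise.

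The members and lists were chosen with earlier results of these data known. Genes were named by a rule: the 12 largest 48 h differences among members of at least 3 log2 CPM, up to 3 per list, the calls in the shXBP1 clones at 72 h, and the genes nearest the threshold. ERN1, XBP1 and IRF4 are checks. COL24A1, SCNN1B, SESN3, AC006305.1, ZNF140, ZNF226, CIITA, HLA-DRB1, HLA-DPB1, IFI6, MX2, PHGDH and SLC7A11 were named after their values were seen. The values of 1 of the 22 genes are not reported here, and the counts and medians over the 22 include it.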

Additional observations from a re-analysis of the deposited data

Results flagged for a closer look

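The change from 0 h differed between the shXBP1 clones by the interaction test of edgeR for 3 genes at 24 h. The change in clone 18 exceeded that in clone 1 by 0.63 on the log2 scale for HIST2H2BE, by 0.37 for SDC4 and by 0.61 for ATF5. At 48 h the difference was 0.33 for SDC4 and 0.91 for ATF5, and at 72 h it was 0.48 for SDC4 (0.39 without 72 h replicate 3 of clone 18).

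For 3 genes every 72 h library of both shIRE1 clones lay above the 0 h libraries, and every 72 h library of both shXBP1 clones lay below them, as held for 0.614% of all genes. All 22 members met the shIRE1 part. Of all genes, 3786 met that part and 113 met both. The difference in direction between shIRE1 and shXBP1 clones was not tested, and the shIRE1 direction was fixed by the choice of genes. The mean log2 CPM difference in shXBP1 clones 1 and 18 was -0.36 and -0.30 for HIST2H2BE, -0.91 and -0.44 for ATF5, and -0.05 and -0.55 for HLA-DPA1. The clone 18 value of HLA-DPA1 rests on 72 h replicate 3, and its fitted change was -0.10 (SE 0.05, adjusted p = 0.276) without that library.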

How the results depend on the processing

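The number of genes that met the rule was 22 with RLE factors, 23 with a prior count of 0.5, 23 with a 48 h mean of at least 0, and 9 with a 24 h window of 0.25. With library totals only it was 18, of which 4 were among the 22, and the number at least 0.8 above 0 h at 72 h in both shIRE1 clones went from 17 to 10. That scaling moved the median difference of all genes from 0 h in these clones to between 0.14 and 0.20. Leaving out 1 library at a time gave 18 to 26 genes for the rule and 13 to 19 for the 72 h count. Of the counts of calls in the shXBP1 clones, all 48 libraries in the fit gave 2 in clone 1 at 24 h, 8 in clone 1 at 72 h and 2 in clone 18 at 24 h. In clone 18 at 24 h there was 1 call without the filter, 1 with DESeq2 and 2 with only the 6 libraries compared, which gave 1 at 72 h. Between the clones at 48 h, RLE factors, DESeq2 and limma each gave 1 gene, and at 72 h no filter and DESeq2 each gave 2. On the median, replicate numbers did not pair the libraries, with median same-number correlations from -0.03 to 0.00. In shXBP1 clone 1, however, single same-number pairs ran from -0.41 to 0.25, with 4 of 18 over 0.1. The replicate block gave 1 gene between the clones at 24 h, 1 at 48 h and 1 at 72 h. Leaving out 1 library gave 4 to 5, 5 to 8 and 5 to 5 calls in clone 1 at 24, 48 and 72 h, 0 to 2, 1 to 6 and 1 to 8 in clone 18, and 0 to 5, 1 to 3 and 1 to 2 between the clones. The library labelled shXBP1 clone 18, 72 h, replicate 3 also entered the fits of the earlier times. Without it clone 18 had 2 calls at 24 h and 6 at 48 h, while 5 genes differed between clones at 24 h and 3 at 48 h. The causes were not tested. Of 416 alternative values of single named genes, 382 kept their side of the threshold, 14 passed it anew, 20 no longer passed it, and 0 changed direction. All 20 fell on the 72 h calls of clone 18, with 5 for HLA-DMB, 4 each for ATF5, HIST1H4H and ZBTB18, and 3 for PDE7A. With only the 6 libraries compared none of these 5 genes passed, and HIST1H4H did not pass with all 48 libraries. Without 0 h replicate 1 the changes that no longer passed were 0.56 for HLA-DMB, -0.39 for ATF5, 0.31 for PDE7A and 0.64 for ZBTB18. Without 0 h replicate 2 they were 0.52 for HLA-DMB and -0.81 for HIST1H4H. Without 0 h replicate 3 they were 0.49 for HLA-DMB, -0.42 for ATF5, 0.29 for PDE7A, -0.77 for HIST1H4H and 0.69 for ZBTB18. Leaving out 72 h replicate 1 gave 0.39 for HLA-DMB, replicate 2 gave -0.39 for ATF5, and replicate 3 gave 0.42 for ZBTB18. SDC4 kept its call in these alternatives. COL24A1, SESN3, AC006305.1 and HIST1H4H had low counts, which limits their precision.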
